A study of Saccharomyces cerevisiae with 6 samples.

Results

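The autophagy genes of budding yeast carry the name ATG and a number, and 32 of the 6416 transcript rows of this study's table have such a name. All rows whose gene name is ATG followed by digits were taken, whatever their values. The study compared strains of Saccharomyces cerevisiae BY4741, a haploid laboratory strain of mating type a, that express a form of the mitochondrial citrate synthase Cit1. Both groups carry NdeltaCit1, which per the series' title lacks the presequence, the leader peptide that directs the protein into mitochondria. The first group expressed NdeltaCit1-DS/AA (called DS/AA here, replicates 1 to 3) and the second expressed NdeltaCit1-DS/AA-H/G (DS/AA-H/G, replicates 4 to 6). Both were grown on galactose as the only carbon source in synthetic complete medium. The labels do not spell out the DS/AA or H/G changes, the promoter or plasmid behind the expression, the growth stage at harvest, or whether samples 1 to 3 and 4 to 6 came from separate cultures. P-values thus rest on the scatter among these samples, and that scatter may be technical.

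In autophagy, a cup of membrane grows around part of the cytoplasm, closes into a vesicle called the autophagosome and fuses with the vacuole, where the cargo is digested and its amino acids are returned to the cytosol. The Atg1 kinase complex starts the process, vesicles bearing Atg9 bring membrane, a lipid kinase marks the site, and paired conjugation systems attach the ubiquitin-like protein Atg8 to the growing membrane. Receptors tie chosen cargo, such as mitochondria, peroxisomes or vacuolar enzymes, to Atg8, and the scaffold Atg11 links them to the kinase. In yeast the process is known to be held low by TOR kinase in rich medium and to be raised by starvation, in part through the transcription of ATG genes.

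Levels are scaled estimated counts, the authors' read estimates divided by a scaling factor per library. The libraries held 30277564 to 32702577 estimated reads. Two-sided tests were made with limma on log2(value + 1) over all 6197 genes that passed a filter on low values, and a gene was called where its Benjamini-Hochberg adjusted p lay under 0.05. A gene is said to have risen or fallen where DS/AA was called higher or lower than DS/AA-H/G. The row for CIT1 itself was lower in DS/AA, at 512058, 505016 and 549422 scaled counts against 1193542, 1206179 and 1217462 in DS/AA-H/G. Strains therefore differ in how much CIT1 transcript they hold as well as in the form of the protein. The parts of these in any result below cannot be told apart. The CIT1 row does not separate any native transcript from that of the expressed form. URA3, a locus deleted in BY4741, was present in all libraries and also lower in DS/AA (15240.3 to 16981 against 40577 to 41043 in DS/AA-H/G). HIS3, which also carries a deletion in BY4741, was present too and was higher in DS/AA (2047, 1758 and 1775 against 1116, 1083 and 1266 in DS/AA-H/G). Of the 4 such loci looked up, LEU2 and MET17 had no row. The URA3 and HIS3 differences also go with the strain, and their part in any result below cannot be told apart either. Of the 6 mating type a markers STE2, STE6, BAR1 and AGA2 were present (121 to 17474), but the pheromone genes MFA1 and MFA2 were near 0 (0.940 to 16.3). The summed markers of mating type a were 27152 to 29129 in DS/AA against 39850.0 to 41768 in DS/AA-H/G. Those of mating type alpha were 2019 to 2170.0 in DS/AA against 1681 to 1806 in DS/AA-H/G, and their part in the results was not tested. The galactose genes GAL1, GAL2, GAL7 and GAL10 stood at 142091 to 412217 over all libraries.

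Most ATG genes were modestly higher in DS/AA, and 3 of them stood well above the rest. ATG41, which binds Atg9, was 7.07-fold higher, ATG8, the protein joined to the autophagosome membrane, 2.25-fold, and ATG1, the kinase that starts autophagy, 1.57-fold. In bulk RNA, a change in every cell and one in a share of the cells cannot be told apart. All 32 genes passed the filter, and each had a value of at least 50 in all 6 libraries, so none entered through high values in a single group. Of the 32 genes, 19 rose, 2 fell and 11 were not called. That is 59.4% higher and 6.25% lower, where the calls over the 6197 genes were 22.1% higher and 19.7% lower (41.8% in either direction). The counts of rises and falls were 21 and 0 with equal column totals, 20 and 0 with equal totals leaving out CIT1, and 12 and 4 with quantile normalization. Among the calls over all genes 52.8% were higher, which became 71.1% with equal column totals and 36.8% with quantile normalization.

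The median change of the 32 genes was 0.22 on the log2 scale, with quartiles of 0.09 and 0.28. Over all tested genes the median was 0.01, with quartiles of -0.12 and 0.17. The ATG median was above 0 under each scaling tried, at 0.27 with equal column totals and 0.12 with quantile normalization. The median of all tested genes moved in the same directions, to 0.06 with equal column totals and -0.06 with quantile normalization. Changes above 0, called or not, were found for 28 ATG genes and for 51.4% of all tested genes. The libraries of the strains did not overlap for 22 genes that were higher in DS/AA and 3 that were lower, where 27.8% and 25.0% of all tested genes did so (52.7% either way). Together the 32 rows took 0.146%, 0.151% and 0.144% of the scaled counts in the DS/AA libraries. In DS/AA-H/G their share was 0.125%, 0.125% and 0.124%. The sizes were small for most, since 16 of the 19 rises lay under 0.5 on the log2 scale, with standard errors of 0.03 to 0.17 over the 32 genes. Rises of at least 0.5 were made by 3 ATG genes, and 7.68% of all tested genes rose by that much.

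**Figure D1:**
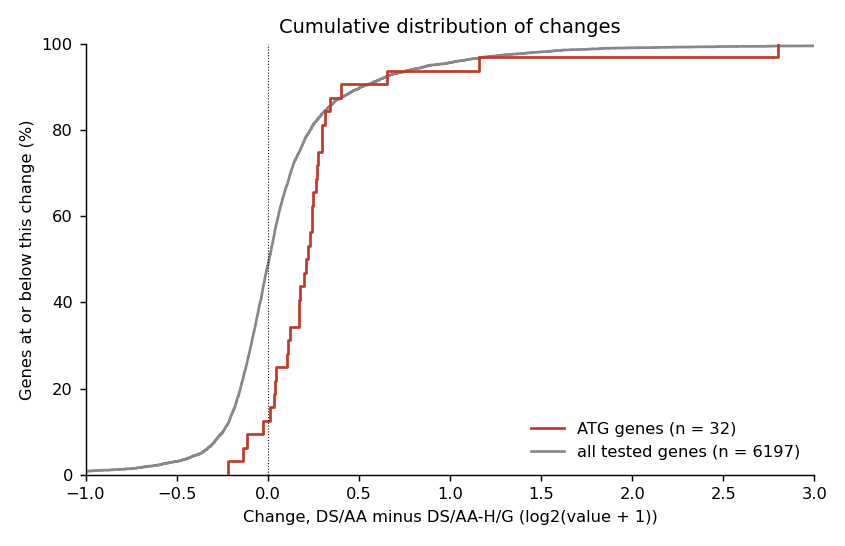
Cumulative share of genes (y axis, percent) at or below each change between DS/AA and DS/AA-H/G (x axis, log2(value + 1)), for the 32 ATG genes in red and all 6197 tested genes in grey. Over most of its range the red curve lies to the right, with medians of 0.22 and 0.01, and at its upper end it crosses the grey one. Rises of at least 0.5 were made by 3 ATG genes (ATG41, ATG8 and ATG1) and by 7.68% of all tested genes.

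The starting kinase complex had 2 of its 4 genes higher and 0 lower, where 22.1% and 19.7% of all tested genes were called in these directions. ATG1 (YGL180W, chromosome VII, 160065 to 162758, plus strand, R64) encodes the kinase and stood at 1471, 1415 and 1310.3 scaled counts in DS/AA, against 891, 898 and 877 in DS/AA-H/G. The lowest DS/AA library was well above the highest of DS/AA-H/G. The log2 change was 0.65 ± 0.05 (SE, n = 3 each, 95% interval 0.53 to 0.77) with a limma adjusted p of 1.78e-06. ATG13, the regulatory subunit that TOR phosphorylates, stood at 3110.4, 2939 and 3000.2 in DS/AA against 2798, 2819 and 2759.7 in DS/AA-H/G. These groups did not overlap either, but the change was small, at 0.11 ± 0.04 (limma adjusted p = 0.0349). ATG17, the scaffold on which the starvation complex assembles, stood at 789 ± 19.1 in DS/AA against 781 ± 27.4 in DS/AA-H/G (SD over 3 samples each), with overlapping libraries and a change of 0.02 ± 0.06. ATG29, which joins Atg17 in that scaffold, stood at 304 ± 6.86 in DS/AA against 260.5 ± 28.0 in DS/AA-H/G (change 0.23 ± 0.10, limma adjusted p = 0.0881) and was not called, although the libraries did not overlap. It shares 24 nt with SET6 on the opposite strand, whose own row held 2.82 to 6.10 in DS/AA against 6.85 to 13.6 in DS/AA-H/G. The ATG13 call was lost with quantile normalization (adjusted p = 0.158) and without DS/AA replicate 1 (0.0972) or 3 (0.0608), or without DS/AA-H/G replicate 4 (0.0729), 5 (0.0839) or 6 (0.0991). ATG29 was called with equal column totals (0.0373).

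Membrane supply held the largest change of the family. Of 4 genes, ATG41, ATG23 and ATG9 rose and ATG27 fell, where 22.1% of all tested genes rose and 19.7% fell. ATG41 (YPL250C, chromosome XVI, 74309 to 74719, minus strand), also known as ICY2, encodes an Atg9-binding protein needed for efficient autophagy. It stood at 531, 614 and 462 scaled counts in DS/AA against 72.4, 69.1 and 85.9 in DS/AA-H/G. Every DS/AA library was thus far above every DS/AA-H/G library. Its log2 change was 2.80 ± 0.13 (SE, n = 3 each, 95% interval 2.51 to 3.09, limma adjusted p = 1.35e-08), and it lay between 2.52 and 2.90 over 13 of the 14 alternatives. Under the stricter filter on low values ATG41 and ATG8 had no value, as neither passed it, nor did ATG10, ATG14, ATG16 and ATG29.

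ATG23, a peripheral membrane protein that moves Atg9 vesicles forward, stood at 983, 1027 and 966 in DS/AA against 789, 750.1 and 806 in DS/AA-H/G. All DS/AA values were higher, and the change was 0.34 ± 0.06 (limma adjusted p = 0.000407). ATG9, the membrane-spanning lipid scramblase of those vesicles, stood at 1336, 1551 and 1323 in DS/AA against 1225, 1220.1 and 1207 in DS/AA-H/G. DS/AA replicate 2 was the highest and the other DS/AA libraries lay closer to DS/AA-H/G, and the change was 0.20 ± 0.06 (limma adjusted p = 0.0206). ATG27, a membrane protein that travels with Atg9, was lower, at 3718, 3699.9 and 3593 in DS/AA against 3957, 3965 and 3995 in DS/AA-H/G. The groups did not overlap, with a change of -0.11 ± 0.03 (limma adjusted p = 0.0202). The ATG27 call was lost with equal column totals, with CIT1 (0.194) or without it (0.0562), without DS/AA replicate 3 (0.0660) and without DS/AA-H/G replicate 5 (0.0693) or 6 (0.0586). That of ATG9 was lost with quantile normalization (0.119), with limma without trend or robust moderation (0.0715), without DS/AA replicate 2 (change 0.13, adjusted p = 0.0742) and without DS/AA-H/G replicate 5 (0.0648) or 6 (0.0564).

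**Figure D2:**
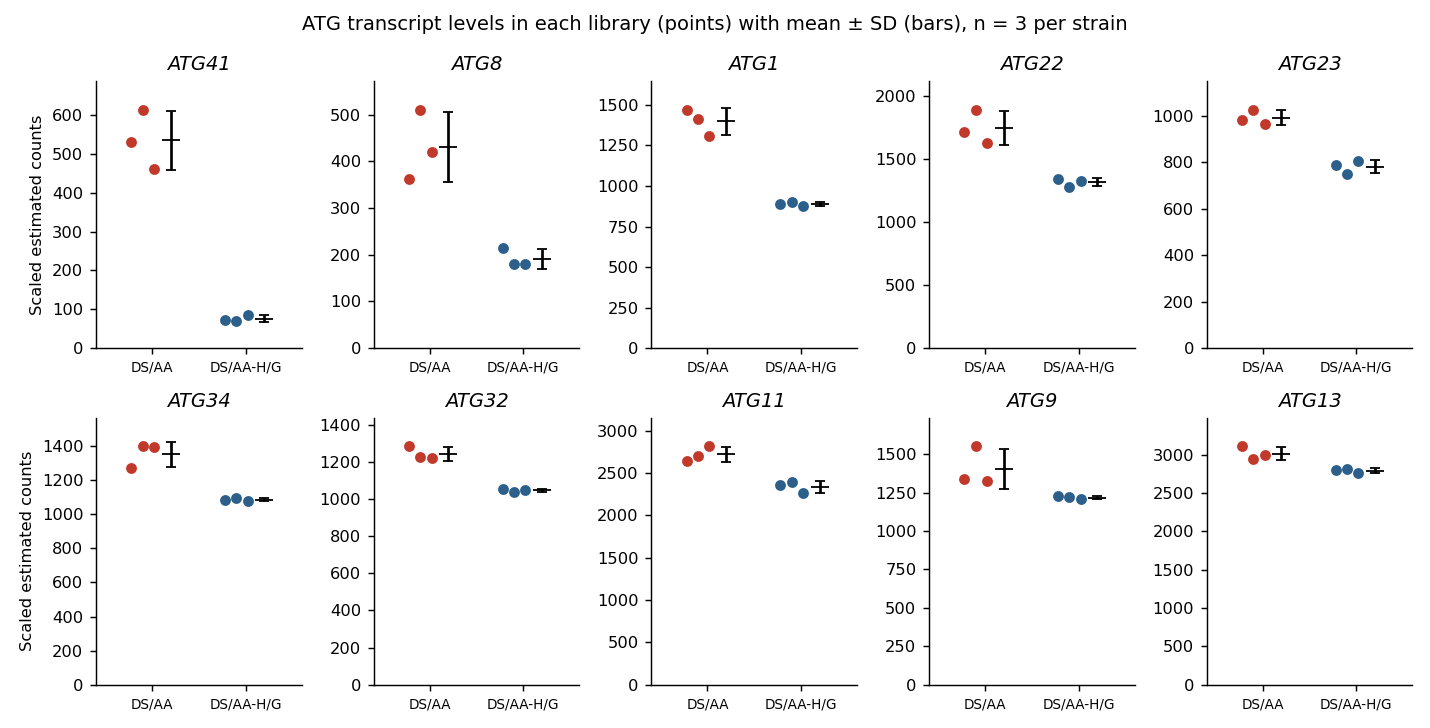
Scaled estimated counts (y axes, linear and starting at 0) in every library of DS/AA (red, left) and DS/AA-H/G (blue, right) for 10 ATG genes, with black bars for the mean ± SD (n = 3 each). These genes were selected from the 32 with earlier results known, so that the lack of overlap in every panel is a description only. Of the 32 genes 7 had overlapping libraries, and 52.7% of all tested genes did not overlap in either direction. Among the panels the gap is largest in proportion for ATG41, at 536 ± 76.0 in DS/AA against 75.8 ± 8.92 in DS/AA-H/G.

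Of the 2 lipid kinase genes 1 rose, and of the 3 genes of the Atg2 and Atg18 family, which acts where its product lies, 0 rose and 1 fell. Over all tested genes 22.1% rose and 19.7% fell. The kinase makes phosphatidylinositol 3-phosphate where the autophagosome forms. ATG38, which holds the kinase complex together, stood at 843, 831 and 800.4 in DS/AA against 678, 756 and 754 in DS/AA-H/G (change 0.18 ± 0.06, limma adjusted p = 0.0395). ATG14, which directs the complex to autophagy, stood at 203 ± 28.5 in DS/AA against 169 ± 23.8 in DS/AA-H/G (SD over 3 samples each), with 1 DS/AA library at 236 and the others at 184 and 189. It was not called (change 0.26 ± 0.14, limma adjusted p = 0.154). Of the lipid-binding group, ATG18, which works with Atg2 at the edge of the growing membrane, fell. It stood at 1439, 1397 and 1457 in DS/AA against 1612, 1589 and 1516 in DS/AA-H/G, so that the groups did not overlap (change -0.14 ± 0.05, limma adjusted p = 0.0315). ATG2, which moves lipids into that membrane, stood at 2424 ± 23.7 in DS/AA against 2371 ± 48.1 in DS/AA-H/G, with overlapping libraries. Its interval of -0.05 to 0.12 on the log2 scale leaves room for small changes only. ATG21, a relative of Atg18 that helps to place the Atg8 machinery, was at 0.12 ± 0.05 and was not called (limma adjusted p = 0.0576).

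Neither call held under every alternative. ATG38 lost its call with quantile normalization (change 0.029, adjusted p = 0.734), with limma without trend or robust moderation (0.0523), without DS/AA replicate 1 (0.0858) or 2 (0.0905), and without DS/AA-H/G replicate 4 (0.146) or 5 (0.0601). ATG18 lost it with equal column totals, with CIT1 (0.187) or without it (0.0754), without DS/AA replicate 2 (0.0939) and without DS/AA-H/G replicate 4 (0.104) or 5 (0.111). ATG21 was called higher with equal column totals (0.00910; 0.0247 leaving out CIT1), without DS/AA replicate 3 (0.0434) and without DS/AA-H/G replicate 6 (0.0482).

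Of the 8 conjugation genes 3 rose, ATG8 by far the most, and 0 fell. Among all tested genes 22.1% rose and 19.7% fell. ATG8 (YBL078C, chromosome II, 80378 to 80731, minus strand) stood at 361, 511 and 420.2 scaled counts in DS/AA, against 215, 179 and 179 in DS/AA-H/G. The lowest DS/AA library was above every DS/AA-H/G library, while the DS/AA libraries spread over a wider range than for most of the family. The log2 change was 1.16 ± 0.13 (SE, n = 3 each, 95% interval 0.87 to 1.44, limma adjusted p = 2.24e-05). Of the other 7 genes 2 rose. ATG3, the conjugating enzyme that hands Atg8 to the lipid, stood at 1034, 1099 and 1123 in DS/AA against 916, 913 and 921 in DS/AA-H/G (change 0.24 ± 0.05, limma adjusted p = 0.00296). ATG5, the protein to which Atg12 is joined, stood at 1339, 1664 and 1408 in DS/AA against 1159, 1229 and 1261 in DS/AA-H/G (change 0.27 ± 0.07, limma adjusted p = 0.0129). In both, every DS/AA library exceeded every DS/AA-H/G library, and for ATG5 DS/AA replicate 2 stood above the others.

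Of the conjugation genes 5 were not called. ATG7, the activating enzyme shared by Atg8 and Atg12, stood at 763 ± 20.5 in DS/AA against 739 ± 3.52 in DS/AA-H/G (SD over 3 samples each), a change of 0.05 ± 0.06 with a 95% interval of -0.08 to 0.17. ATG4, the protease that trims Atg8 and later frees it, was at 0.11 ± 0.07 (limma adjusted p = 0.222). ATG10, the conjugating enzyme of Atg12, was the lowest of the 32 genes at 65.6 ± 8.64 in DS/AA against 55.1 ± 2.59 in DS/AA-H/G, and its change of 0.24 had the widest interval, -0.14 to 0.62. ATG16, which binds the Atg12 and Atg5 pair, was at -0.03 ± 0.12 and overlaps YMR158W-B on the opposite strand over 316 nt, a row that held no more than 0.979 in any library. ATG12, the ubiquitin-like modifier of Atg5, stood at 356, 343 and 351 in DS/AA against 373, 421 and 429 in DS/AA-H/G. It was lower in each DS/AA library but was not called (change -0.22 ± 0.08, limma adjusted p = 0.0557).

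With quantile normalization ATG12 and ATG16 were called lower (0.000690 and 0.0357) and the calls of ATG3 (0.0645) and ATG5 (0.0502) were lost. ATG12 was also called lower by limma without trend or robust moderation (0.0425), where ATG5 was not called (0.0703). Leaving out DS/AA-H/G replicate 4 gave a call to ATG12 (0.0277) and ended that of ATG5 (0.0514).

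Grouped under selective autophagy were 9 genes, among them receptors, the scaffold gene ATG11 and, as neither, ATG20, ATG26 and ATG33. Of these 9 genes 8 rose and 0 fell, where the calls were 22.1% and 19.7% of all tested genes in these directions. The grouping was made with earlier results of these data known, so the count is a description only. The group's median change was 0.25, and its called changes ran from 0.17 to 0.31. The count was 7 with quantile normalization and 8 with each other scaling. ATG11, the scaffold that gathers receptors and the kinase, stood at 2647, 2701 and 2816 in DS/AA against 2359.9, 2394 and 2259.6 in DS/AA-H/G. The groups did not overlap (change 0.22 ± 0.04, limma adjusted p = 0.00132). ATG32, the mitophagy receptor in the mitochondrial outer membrane, stood at 1283, 1224 and 1219 in DS/AA against 1052, 1036 and 1050.2 in DS/AA-H/G. All DS/AA values again lay above (change 0.25 ± 0.05, limma adjusted p = 0.00140). ATG33, a further outer membrane protein that promotes mitophagy, stood at 1101 ± 57.2 in DS/AA against 896 ± 23.1 in DS/AA-H/G (SD over 3 samples each) and rose by 0.30. ATG36, the receptor for peroxisomes, stood at 631 ± 11.5 in DS/AA against 513 ± 28.8 in DS/AA-H/G and rose by 0.30, a call lost with quantile normalization (adjusted p = 0.178).

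ATG19 and ATG34 encode related receptors and lie next to each other on chromosome XV, on the same strand. ATG19 (YOL082W, chromosome XV, 168727 to 169974) carries vacuolar enzymes to the vacuole in growing cells, in the cytoplasm-to-vacuole pathway. It stood at 3041, 3030.4 and 2695 in DS/AA against 2434, 2373 and 2430.4 in DS/AA-H/G (change 0.27 ± 0.05, limma adjusted p = 0.000876). ATG34 (YOL083W, chromosome XV, 165714 to 166952) serves alpha-mannosidase under starvation. It stood at 1267, 1397 and 1391 in DS/AA against 1083, 1097 and 1077 in DS/AA-H/G (change 0.31 ± 0.05, limma adjusted p = 0.000459). Neither pair of groups overlapped, and the intervals of these changes (0.17 to 0.38 for ATG19 and 0.20 to 0.43 for ATG34) did. A reading frame on the opposite strand, YOL083C-A, overlaps ATG34 over 141 nt and was at 0 in 5 libraries and at 0.940 in the sixth, DS/AA replicate 3. No stretch of at least 100 nt at 95% identity was shared between any of the 32 genes and another row.

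ATG20, a sorting nexin of the cytoplasm-to-vacuole pathway, stood at 2119.9 ± 76.0 in DS/AA against 1831 ± 67.0 in DS/AA-H/G and rose by 0.21 (limma adjusted p = 0.00293). ATG26, a sterol glucosyltransferase known to be needed for peroxisome breakdown in the yeast Pichia pastoris, stood at 4702 ± 134 in DS/AA against 4182 ± 103 in DS/AA-H/G and rose by 0.17 (limma adjusted p = 0.00373). ATG40, a receptor for the endoplasmic reticulum, was the only gene of this group not called. It stood at 584, 629 and 542 in DS/AA against 559.9, 531 and 614 in DS/AA-H/G, overlapping between the strains, with a change of 0.04 ± 0.08 and a 95% interval of -0.13 to 0.22. Whether its change differed from those of the other genes of the group was not tested.

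Both of the 32 genes grouped under vacuolar steps rose, where 22.1% of all tested genes did. ATG22, which exports amino acids from the vacuole, stood at 1717, 1892 and 1626 in DS/AA against 1345, 1279.5 and 1326 in DS/AA-H/G. The groups were far apart relative to their spread (change 0.40 ± 0.06, limma adjusted p = 0.000137). ATG15, the lipase that breaks open autophagic bodies, stood at 2318, 2429 and 2236 in DS/AA against 1942, 2058 and 2196 in DS/AA-H/G (change 0.17 ± 0.05, limma adjusted p = 0.0184). DS/AA-H/G replicate 6 came close to the lowest DS/AA library. ATG15 lost its call with quantile normalization (0.0570), with limma without trend or robust moderation (0.0691), without DS/AA replicate 2 (0.0671) and without DS/AA-H/G replicate 4 (0.0797) or 5 (0.0648).

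**Figure D3:**
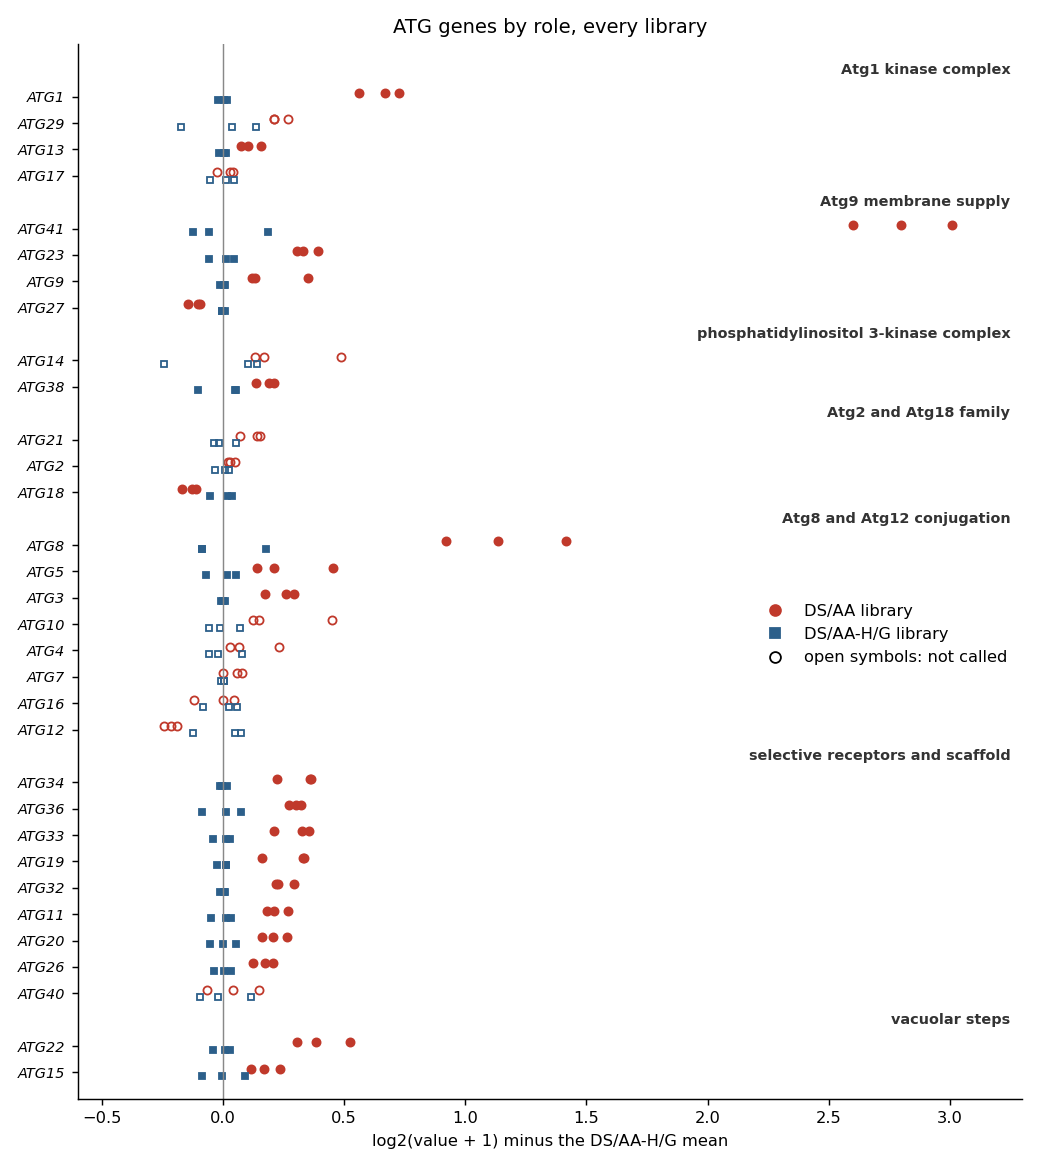
Every library of the 32 ATG genes, by role, as log2(value + 1) minus the DS/AA-H/G mean of that gene (x axis), with DS/AA as red circles above DS/AA-H/G as blue squares; open symbols mark genes that were not called. Red circles lie to the right of the squares for most genes, furthest for ATG41, ATG8 and ATG1, and to the left for ATG27, ATG18 and ATG12.

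DS/AA replicate 2 weighed on the sizes. It gave the highest of the 3 DS/AA values in 15 of the 32 genes (46.9%), where it did so in 32.1% of all tested genes. Without it the median change of the family was 0.16, against 0.22 with all libraries.

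Another 5 rows have no gene name in the table but are ATG genes in the RefSeq annotation of R64, and they were kept apart from the 32. ATG39 (YLR312C, chromosome XII, 757637 to 758833), the receptor for the nuclear envelope and nearby endoplasmic reticulum, stood at 971, 1068 and 932 in DS/AA against 708, 674 and 664 in DS/AA-H/G. The change was 0.54 ± 0.06 (limma adjusted p = 3.62e-05), larger than that of all 9 named genes of the selective group, with no test of the difference. ATG31, which binds Atg17 and Atg29, stood at 593, 594 and 558 in DS/AA against 389.6, 455 and 454 in DS/AA-H/G (change 0.43 ± 0.08, limma adjusted p = 0.00118). The libraries of the strains did not overlap for either gene, nor for ATG45, which was not called. Of all tested genes 27.8% were higher in DS/AA without overlap, and 22.1% were called higher. ATG42, a vacuolar carboxypeptidase, stood at 5003 ± 393 in DS/AA against 5510.2 ± 413 in DS/AA-H/G (change -0.14 ± 0.06, limma adjusted p = 0.109) and was not called with all libraries. It was called lower without DS/AA replicate 2 (0.0347) and without DS/AA-H/G replicate 4 (0.0434). ATG44, which acts in the fission of mitochondria, was at 0.19 ± 0.11 (limma adjusted p = 0.184) and was called higher without DS/AA replicate 1 (0.0225). ATG45 was at 0.10 ± 0.06 (limma adjusted p = 0.225).

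Between genes, levels were compared as scaled counts per kb of coding sequence. ATG27 was the highest of the 32 in both strains, at 4498 per kb in DS/AA against 4868 in DS/AA-H/G, and ATG19 came next at 2342 in DS/AA against 1933 in DS/AA-H/G. The lowest were ATG10, at 130.1 in DS/AA against 109 in DS/AA-H/G, and ATG14, at 196 in DS/AA against 163 in DS/AA-H/G. The first 7 places, from ATG27 to ATG26, were held by the same genes in the same order in both strains. ATG41 held place 8 in DS/AA against place 30 in DS/AA-H/G, at 1304 and 184 per kb. ATG8 held place 9 in DS/AA against place 23 in DS/AA-H/G, at 1216 and 540.3. Within the kinase complex the order of levels per kb was ATG13, ATG17, ATG1 and ATG29 in DS/AA, at 1361, 629, 519 and 474. In DS/AA-H/G it was ATG13, ATG17, ATG29 and ATG1, at 1259.5, 623, 406 and 329.9.

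**Figure D4:**
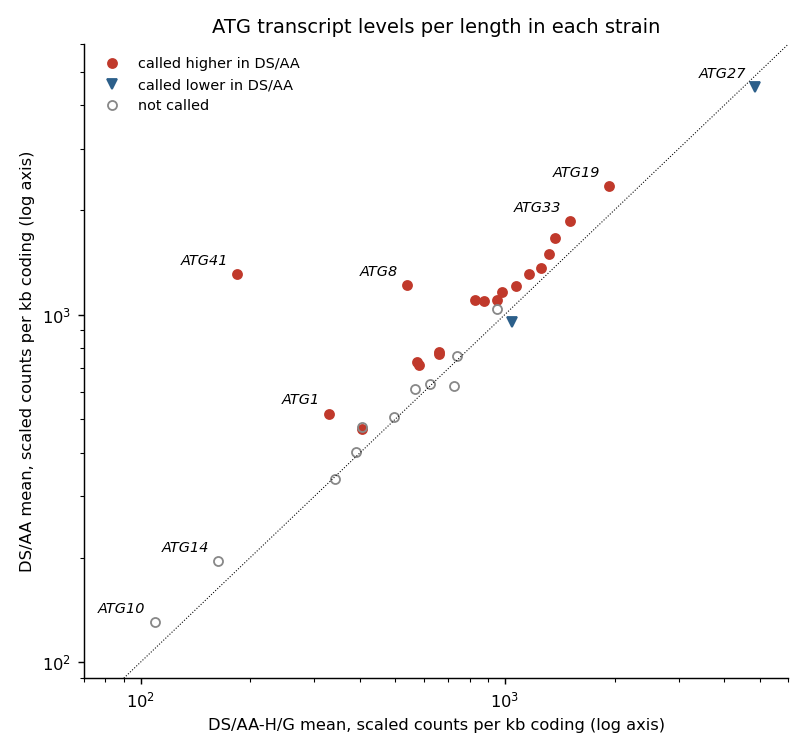
Mean level per kb of coding sequence in DS/AA (y axis) against DS/AA-H/G (x axis) for the 32 ATG genes, both on log axes, with a dotted line of equality. ATG41 (1304 in DS/AA, 184 in DS/AA-H/G) and ATG8 lie furthest above the line, and ATG27, the most abundant gene, lies just below it.

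Sequences are shown for the 3 genes with changes of at least 0.5 and for ATG32, whose change was smaller (0.25). Transcription of ATG genes is known to answer to named factors. Each window runs from 250 bases before the start codon to 50 bases from its first base on, was read from the R64 genome (RefSeq assembly), and is written 5′ to 3′ on the strand of the gene. Capitals mark matches, on either strand, to TGACTC (Gcn4, the activator of amino acid synthesis), GATAAG (the site of the zinc finger factors of nitrogen control), AGGGG (the stress element, also read by the repressor Rph1), GCCGCC (part of the site of the repressor Ume6) and CACGTG (Pho4 and Cbf1). The windows are ATG41 at chrXVI:74670-74969 (minus strand), ATG8 at chrII:80682-80981 (minus strand), ATG1 at chrVII:159815-160114 (plus strand) and the mitophagy receptor gene ATG32 at chrIX:75724-76023 (minus strand).
ATG41: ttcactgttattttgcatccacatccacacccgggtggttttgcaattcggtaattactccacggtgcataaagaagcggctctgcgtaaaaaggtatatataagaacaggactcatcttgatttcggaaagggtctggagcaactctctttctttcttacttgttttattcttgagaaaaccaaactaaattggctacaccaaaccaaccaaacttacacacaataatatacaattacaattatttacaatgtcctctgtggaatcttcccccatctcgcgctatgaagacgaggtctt
ATG8: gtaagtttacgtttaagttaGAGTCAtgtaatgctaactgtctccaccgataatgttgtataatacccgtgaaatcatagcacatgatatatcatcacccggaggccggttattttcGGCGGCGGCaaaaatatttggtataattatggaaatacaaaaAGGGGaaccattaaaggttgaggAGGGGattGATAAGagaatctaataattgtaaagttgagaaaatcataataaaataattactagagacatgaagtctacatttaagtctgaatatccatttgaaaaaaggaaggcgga
ATG1: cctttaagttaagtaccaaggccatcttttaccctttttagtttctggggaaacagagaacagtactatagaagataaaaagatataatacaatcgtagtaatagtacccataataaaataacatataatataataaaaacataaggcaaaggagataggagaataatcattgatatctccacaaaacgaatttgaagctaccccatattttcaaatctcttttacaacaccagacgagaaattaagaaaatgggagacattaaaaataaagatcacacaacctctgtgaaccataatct
ATG32: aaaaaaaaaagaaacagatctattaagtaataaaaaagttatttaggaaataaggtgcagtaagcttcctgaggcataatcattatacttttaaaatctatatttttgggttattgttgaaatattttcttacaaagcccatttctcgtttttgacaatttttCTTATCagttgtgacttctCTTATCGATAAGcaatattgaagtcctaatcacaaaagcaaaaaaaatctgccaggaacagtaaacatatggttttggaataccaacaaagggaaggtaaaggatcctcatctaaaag

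The ATG8 window held 4 of the 5 motifs. GCCGCC appeared as a pair of overlapping matches on the opposite strand, the first of them 133 bases before the start codon. AGGGG was found 91 and 68 bases before it, GATAAG 60 bases before it and TGACTC 230 bases before it. ATG41 and ATG1, the other genes with changes of at least 0.5, held none of these letters in their windows. ATG32 held GATAAG at 3 places, 87, 68 and 62 bases before the start codon.

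Over the 32 genes, GATAAG was in 10 windows (31.2%, against 14.5% of 6316 windows of protein-coding rows). Of these 10 genes 6 rose, near the share of the whole ATG family (59.4%), and 1 fell (6.25% in the family). Over all tested genes 22.1% rose and 19.7% fell. TGACTC was in 6 ATG windows (18.8%, against 8.20% of all windows), and 2 of these genes, ATG8 and ATG13, rose. The ATG13 match ended on the first base of the start codon. That of ATG10 lay within the coding sequence, 44 bases after that base. AGGGG was in 7 (21.9%, against 21.6%), with 5 risen. GCCGCC was in the windows of ATG8 and ATG19 (6.25%, against 5.18%), and both rose. CACGTG was in those of ATG20 and ATG40 (6.25%, against 2.99%), of which ATG20 rose. The other 17 windows held none of the motifs, and 10 of those genes rose. Matches of letters are a description and do not show that a factor is bound.

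**Figure D5:**
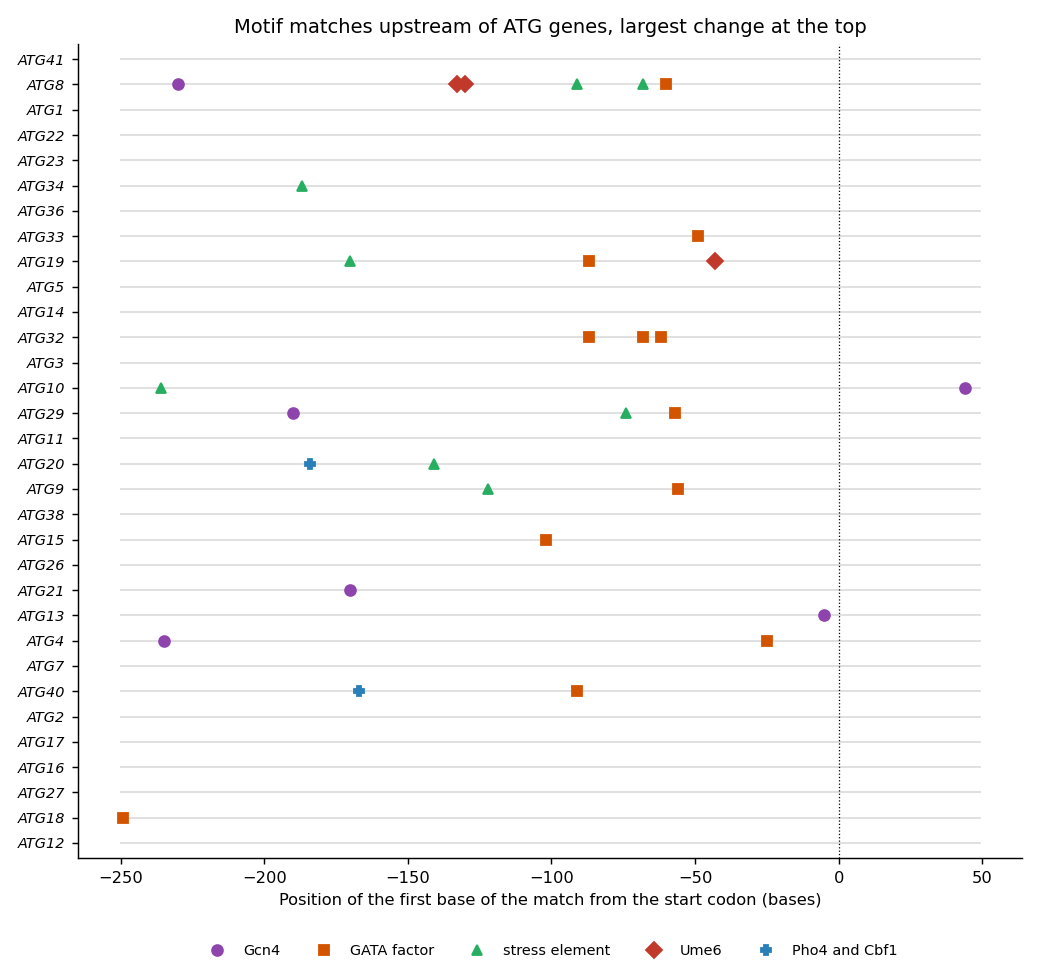
Matches to the 5 motifs in the windows of the 32 ATG genes, as the distance of the first base of the match from the start codon (x axis, bases), with genes ordered from the largest change at the top to the smallest at the bottom. ATG8 carries 6 matches, the most of any gene, while ATG41, ATG1, ATG22 and ATG23 carry 0.

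Genes that work with the ATG proteins or control them were set beside the family from lists written with knowledge of earlier results. Of 26 autophagy factors without an ATG name, 4 rose and 2 fell (15.4% and 7.69%), with a median change of 0.02. Both shares lie under those of all tested genes, 22.1% and 19.7%. MON1, which activates the Rab protein for fusion with the vacuole, stood at 1427 ± 59.8 in DS/AA against 1128 ± 41.1 in DS/AA-H/G (SD over 3 samples each, change 0.34 ± 0.05, limma adjusted p = 0.000228). YKT6, a fusion SNARE, stood at 3144 ± 106 in DS/AA against 3783 ± 49.7 in DS/AA-H/G (change -0.27 ± 0.04). DNM1, a dynamin that divides mitochondria, rose by 0.22. VPS30, known also as Atg6, was at -0.03 ± 0.05 and SNX4, known also as Atg24, at -0.05 ± 0.05, and neither was called. With equal column totals 9 of this list were called higher. At that scaling 71.1% of the calls over all genes were higher, against 52.8% as deposited.

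Among 34 upstream kinases and their regulators, 5 rose and 5 fell (14.7% each way, under the 22.1% and 19.7% of all tested genes), with a median of 0.04. SLT2, the kinase of cell wall signalling that mitophagy and peroxisome breakdown also need, stood at 5159, 4877 and 4699 in DS/AA against 3330.4, 2601 and 2446 in DS/AA-H/G. DS/AA-H/G replicate 4 was the highest of its group and still under every DS/AA library (change 0.83 ± 0.11, limma adjusted p = 0.000860). SNF4, the activating subunit of the energy sensor Snf1, stood at 1940.4 ± 59.4 in DS/AA against 2489 ± 70.2 in DS/AA-H/G and fell by 0.36. LST8, a subunit of the TOR complexes, rose by 0.24, a call lost with limma without trend or robust moderation (0.0530). TOR1 itself was at -0.01 ± 0.04 (95% interval -0.10 to 0.09) and was not called. With equal column totals the counts were 10 higher and 1 lower, where 71.1% of the calls over all genes were higher (52.8% as deposited).

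Of 24 transcription and mRNA regulators of ATG genes, 6 rose and 5 fell, with a median of 0.03. These are 25.0% and 20.8%, near the 22.1% and 19.7% of all tested genes. DAL80, a GATA repressor that is itself induced when nitrogen is poor, stood at 165, 212 and 189 in DS/AA against 54.8, 72.2 and 57.6 in DS/AA-H/G. Its levels were low but well apart (change 1.60 ± 0.16, limma adjusted p = 6.85e-06). GAT1, a GATA activator, stood at 2946 ± 118 in DS/AA against 2126 ± 76.6 in DS/AA-H/G (change 0.47 ± 0.04, limma adjusted p = 4.97e-06). MSN4, an activator of stress genes, stood at 3841 ± 86.8 in DS/AA against 5118 ± 306 in DS/AA-H/G and fell by 0.41. GCN4 and GLN3, chosen after their values were seen, rose by 0.40 and 0.33. The repressor genes UME6 and RPH1 were at 0.07 ± 0.04 and 0.02 ± 0.05 and were not called. With equal column totals 11 were higher and 1 lower, where 71.1% of the calls over all genes were higher (52.8% as deposited).

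The cargo and vacuolar hydrolase list had 4 of 14 higher and 3 lower, with a median of 0.05. That is 28.6% and 21.4%, where all tested genes had 22.1% and 19.7%. AMS1, the alpha-mannosidase carried by Atg19 and Atg34, stood at 4413, 4994 and 4586 in DS/AA against 1538, 1551 and 1636 in DS/AA-H/G. The DS/AA libraries were all above the others (change 1.56 ± 0.05, limma adjusted p = 4.40e-10). PRB1, the vacuolar proteinase B, stood at 18757 ± 794 in DS/AA against 11725 ± 112 in DS/AA-H/G (change 0.68 ± 0.04). ALD6, an aldehyde dehydrogenase that autophagy is known to degrade preferentially, stood at 40086 ± 3559.7 in DS/AA against 24872 ± 149.6 in DS/AA-H/G (change 0.68 ± 0.05). LAP4, the aminopeptidase that is the main cargo of Atg19, rose by 0.18, and LAP3, a further cargo, fell by 0.40, both chosen after their values were seen. With equal column totals, and with quantile normalization, 7 were called higher. Of the calls over all genes 71.1% and 36.8% were higher at these scalings, against 52.8% as deposited.

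The authors' deposited table gave q under 0.05 to 19 ATG genes as higher in DS/AA and 3 as lower. All 21 genes called here were among those 22, and the one more was ATG12, with a log2 ratio of -0.22 and q = 0.0350 in the authors' deposited table. Over the 6197 tested genes, 23.0% were higher and 19.8% lower by that mark.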

How the data were processed

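RNA of 6 yeast samples was sequenced from directional libraries, per the labels' protocols. Salmon 1.2.1 is named for the work, beside cutadapt 1.18, R 3.5.1, bcl2fastq 2 and build R64, per the submitters' processing notes. Their order, settings and strand handling: not given in the sources used here. Values deposited by the authors per sample are a signal: estimated counts divided by a factor per library, as read from the values, since 93.3% to 96.4% of values under 10 steps were whole multiples (within 0.01) of a step of 0.940 to 1.05 but only 36.5% to 44.0% of all values were. No count model was therefore applied. The authors also deposited a log2 ratio, a p-value and a q-value for each row, with a score that ranks rows and a flag column.

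Here log2(value + 1) was fitted with limma 3.58.1 (R 4.3.3, trend and robust moderation) for genes that reached 1 in 3 or more of the 6 samples, and p-values were adjusted by Benjamini-Hochberg over all 6197. Changes on this scale understate those of low genes. The ATG genes, roles, lists, motifs and tests were chosen with earlier results of these data known. Every ATG gene is named. Values of every library are given for the 6 largest called changes, for ATG1, ATG8, ATG9, ATG11, ATG13 and ATG32, and for others chosen after their values were seen. From each related list the 3 largest called changes are named. All 32 genes had the same start and end in RefSeq R64. Shared stretches were searched with BLAST+ 2.17.0. The alternatives were other pseudocounts, filters, scalings, limma settings and leaving out each library.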

Additional observations from a re-analysis of the deposited data

How the results depend on the processing

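No paired analysis was possible because the strains share no replicate number. The median change of the 32 genes was 0.12 with quantile normalization and 0.27 with equal column totals, where it was 0.22 as deposited. It was 0.16 to 0.23 when a library was left out. For all tested genes the median was -0.06 with quantile normalization, 0.06 with equal column totals and 0.01 as deposited. Rises of ATG genes numbered 12 with quantile normalization and 15 to 19 without a library; falls numbered 4 with quantile normalization, 0 with equal column totals (also without CIT1) and 0 to 2 without a library. By role, quantile normalization gave 1 rise in the kinase complex, 1 rise and 2 falls in conjugation, 0 rises in the lipid kinase group and 1 in the vacuole. Equal column totals, and the same without CIT1, gave 1 rise and 0 falls in the Atg2 and Atg18 family and 0 falls in membrane supply. Limma without trend or robust moderation gave 1 fall in conjugation, 0 rises in the lipid kinase group and 1 in the vacuole. Without a library, rises were 1 to 2 in the kinase complex, 0 to 1 in the Atg2 and Atg18 family, 2 to 3 in conjugation, 0 to 1 in the lipid kinase group and 1 to 2 in the vacuole, and falls 0 to 1 in the Atg2 and Atg18 family, conjugation and membrane supply.

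For the related lists, equal column totals gave 9 rises and 1 fall among autophagy factors, 10 and 1 among kinases, 11 and 1 among regulators and 7 and 1 among cargo and hydrolases. Without CIT1 they gave 2 falls among regulators and 7 rises and 1 fall among cargo. Quantile normalization gave 7 rises among cargo, and limma without trend 3 rises among kinases, 2 falls among regulators and 1 among cargo. Without a library the lists had 1 to 3 falls among factors, 2 to 5 among kinases, 1 to 4 among regulators and 1 to 2 among cargo. Among the calls over all genes, 71.1% were higher with equal column totals and 60.9% with these leaving out CIT1. The share was 36.8% with quantile normalization and 52.8% as deposited.

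Signs turned for genes that were not called. Under quantile normalization these were ATG2 (-0.014), ATG4 (-0.026), ATG7 (-0.099), ATG10 (-0.16), ATG14 (-0.0051), ATG17 (-0.13), ATG29 (-0.072), ATG40 (-0.15), ATG44 (-0.10) and ATG45 (-0.075). Left-out libraries gave -0.067 to 0.022 for ATG16, -0.013 to 0.037 for ATG17 and -0.011 to 0.0998 for ATG40. ATG16 was at 0.029 with equal column totals, 0.022 without DS/AA replicate 1 and 0.0036 without DS/AA-H/G replicate 6, ATG17 at -0.013 without DS/AA-H/G replicate 4, and ATG40 at -0.011 without DS/AA replicate 2 and -0.0057 without DS/AA-H/G replicate 5. The causes were not tested. Calls of 12 ATG genes held under every alternative that tested them: ATG1, ATG8, ATG11, ATG19, ATG20, ATG22, ATG23, ATG26, ATG32, ATG33, ATG34 and ATG41, of which ATG8 and ATG41 did not pass the stricter filter and were not tested there. Depth limits ATG10 most, at 52.9 to 75.5 scaled counts.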
